A study of Mus musculus with 13 samples.

Results

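Messenger RNA of 36 synaptic vesicle and synapse genes was followed in 13 mouse small cell lung cancers. The genes were taken by symbol from the deposited table of 54532 genes, and all 36 were found, each on 1 row. Of these, 35 had enough reads to be tested, and the vesicular glutamate transporter gene Slc17a6 did not. The tumours were 7 of genotype sgKdm6a RPP and 6 of genotype sgControl RPP, all from congenic BL6J mice that carry a Cas9 gene behind a lox-stop-lox cassette. As known of the RPP model, guide RNAs target Rb1, Trp53 and Rbl2, so both groups share these targets and Cas9, and they differ in a guide against Kdm6a or a control guide. Kdm6a encodes a demethylase of histone H3, also called UTX. No tumour had been treated, and all were flash-frozen at necropsy. The labels give neither the age of the mice nor the cell type in which Cas9 was switched on. In the sgKdm6a group, replicates 1 and 2, 4 and 5, and 6 and 7 carry the same title number, and the labels leave unsaid whether such tumours came from 1 animal. The p-values therefore reflect only the differences among these tumours, some of which may share an animal. The title numbers fall into a lower and a higher series, each with tumours of both genotypes.

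Neurons store transmitter in synaptic vesicles, which dock at the active zone and fuse with the plasma membrane when calcium enters the terminal. Fusion is driven by SNARE proteins and is held and triggered by complexins and synaptotagmins, while neurexins and neuroligins join the terminal to a receiving membrane that carries receptors on scaffolds. Neuroendocrine cells use much of the same release machinery for hormone granules, and synaptophysin is a diagnostic marker of small cell lung cancer.

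Many neuronal genes are held silent outside the nervous system by the repressor REST, which binds an element called RE1, so the promoters of members were searched for the left end (CAGCACC) and the right end (GGACAG) of that element. RefSeq windows of GRCm38.p6, from 250 bases before to 50 bases after each start, matched 28 of the 36 genes with 41 windows. The windows of 3 genes whose levels are described below are shown, Syn1 for a pair of CAGCACC matches, and Gria2 and Sv2c because their levels ranged widely among tumours. Capitals mark an exact match to an RE1 end, on either strand, and each sequence reads 5′ to 3′ along the gene. The Syn1 window is chrX:20920869-20921168, the Gria2 window chr3:80802786-80803085 and the Sv2c window chr13:96132528-96132827, all on the minus strand.
Syn1: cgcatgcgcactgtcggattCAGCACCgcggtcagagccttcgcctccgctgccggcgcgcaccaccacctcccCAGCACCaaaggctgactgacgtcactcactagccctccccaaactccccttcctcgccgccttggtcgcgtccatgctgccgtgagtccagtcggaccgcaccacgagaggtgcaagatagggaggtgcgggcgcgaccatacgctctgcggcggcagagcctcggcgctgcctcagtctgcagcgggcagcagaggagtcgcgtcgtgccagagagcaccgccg
Gria2: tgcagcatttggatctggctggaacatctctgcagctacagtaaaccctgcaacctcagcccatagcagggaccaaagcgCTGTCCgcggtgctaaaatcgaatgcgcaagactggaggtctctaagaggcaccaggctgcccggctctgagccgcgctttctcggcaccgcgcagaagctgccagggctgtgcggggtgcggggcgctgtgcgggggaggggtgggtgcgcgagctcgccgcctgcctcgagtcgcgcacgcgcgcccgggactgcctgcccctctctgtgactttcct
Sv2c: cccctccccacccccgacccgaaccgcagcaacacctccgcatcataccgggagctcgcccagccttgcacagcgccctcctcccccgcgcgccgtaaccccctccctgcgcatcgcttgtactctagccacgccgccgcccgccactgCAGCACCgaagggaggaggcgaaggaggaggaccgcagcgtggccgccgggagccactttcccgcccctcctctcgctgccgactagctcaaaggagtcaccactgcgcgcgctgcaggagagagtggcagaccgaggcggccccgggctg

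CAGCACC was found 230 and 176 bases before the start of Syn1 and 101 bases before that of Sv2c. In the Gria2 window CTGTCC, the reverse complement of GGACAG, lay 170 bases before the start. Over both strands CAGCACC was in 12.2% of member windows and in 7.14% of all 32851 windows, and GGACAG was in 24.4% and 22.2%. Exact matches to both ends in order and 2 bases apart were in 0 of the 41 member windows and in 12 (0.0365%) of all windows. Near matches were not counted. In Syn1 the CAGCACC at 230 bases is followed after 2 bases by GGTCAG, a single letter away from GGACAG. In Gria2 CTGTCC is followed after 2 bases by GGTGCTA, a single letter away from the reverse complement of CAGCACC. The count of 0 therefore does not show that members lack an RE1. TGACG, the core of a cAMP response element, was in 26.8% of member windows and 20.8% of all windows, and the E-box CAGATG in 7.32% and 17.2%. The median number of CG dinucleotides per window was 16 in member windows and 7 in all windows. These matches are descriptions of letters and show no binding.

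The deposited counts summed to between 16835726 and 22910187 per tumour, so that 3 counts were worth 0.131 to 0.178 CPM, a read count scaled to the library total, while all other CPM values use TMM-scaled library sizes. Kdm6a mRNA was at 42.7 to 91.3 CPM in sgKdm6a and 51.7 to 112 CPM in sgControl tumours. The edgeR log2 fold change of -0.14, with an SE of 0.22, had an adjusted p of 0.887, and small Cas9 deletions need not lower an mRNA. All 12 neuroendocrine markers examined had reads in every tumour, chromogranin A (Chga) at 228 to 960 CPM. Of 10 Schwann cell and glia genes examined, Sox10 and Foxd3 had at most 6 and 4 counts in any tumour. Others of that list were well above this, with Mbp at 94.0 to 330 CPM, Pmp22 at 19.7 to 181 CPM and Erbb3 at 5.22 to 102 CPM. One library stood apart, as 63 marker genes of lung epithelium, vessels, myeloid cells and fibroblasts summed to 1585 to 3915 CPM in sgKdm6a tumours, against 48104 CPM in sgControl replicate 6 and 3127 to 5439 CPM in the other sgControl tumours. Y-linked reads were present in sgKdm6a replicate 3 and in sgControl replicates 1, 2, 3, 5 and 6. These reads were thus unevenly spread over the genotypes, and the Kdm6a estimate given here carried no term for them.

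None of the 35 tested members differed between the genotypes at an edgeR adjusted p under 0.05, and across all 16575 genes tested 0 did (0%). Synaptophysin (Syp) was higher in sgKdm6a tumours at an unadjusted p under 0.05, as were 3.18% of all genes, and 0 of the 35 were lower, as were 6.97% of all genes. DESeq2 likewise called 0 members after adjustment, while it called 0.411% of all genes, and at an unadjusted p under 0.05 it gave 3 members as higher and 1 as lower, against 4.74% and 5.91% of all genes. The log2 fold change was above 0 for 28 of the 35 members and for 49.7% of all genes, with a median of 0.36 over the members and -0.0017 over all genes. Without sgControl replicate 6, 23 of 35 were above 0 and the median was 0.27. With the level of the 63 tissue marker genes as a term, 17 of 35 were above 0 and the median was -2.93e-05. The members' ranges overlapped between the genotypes for all 36 genes, and 0.284% of all genes had groups that did not overlap. In bulk tumours, fewer cells of a type and less RNA per cell cannot be told apart.

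**Figure D1:**
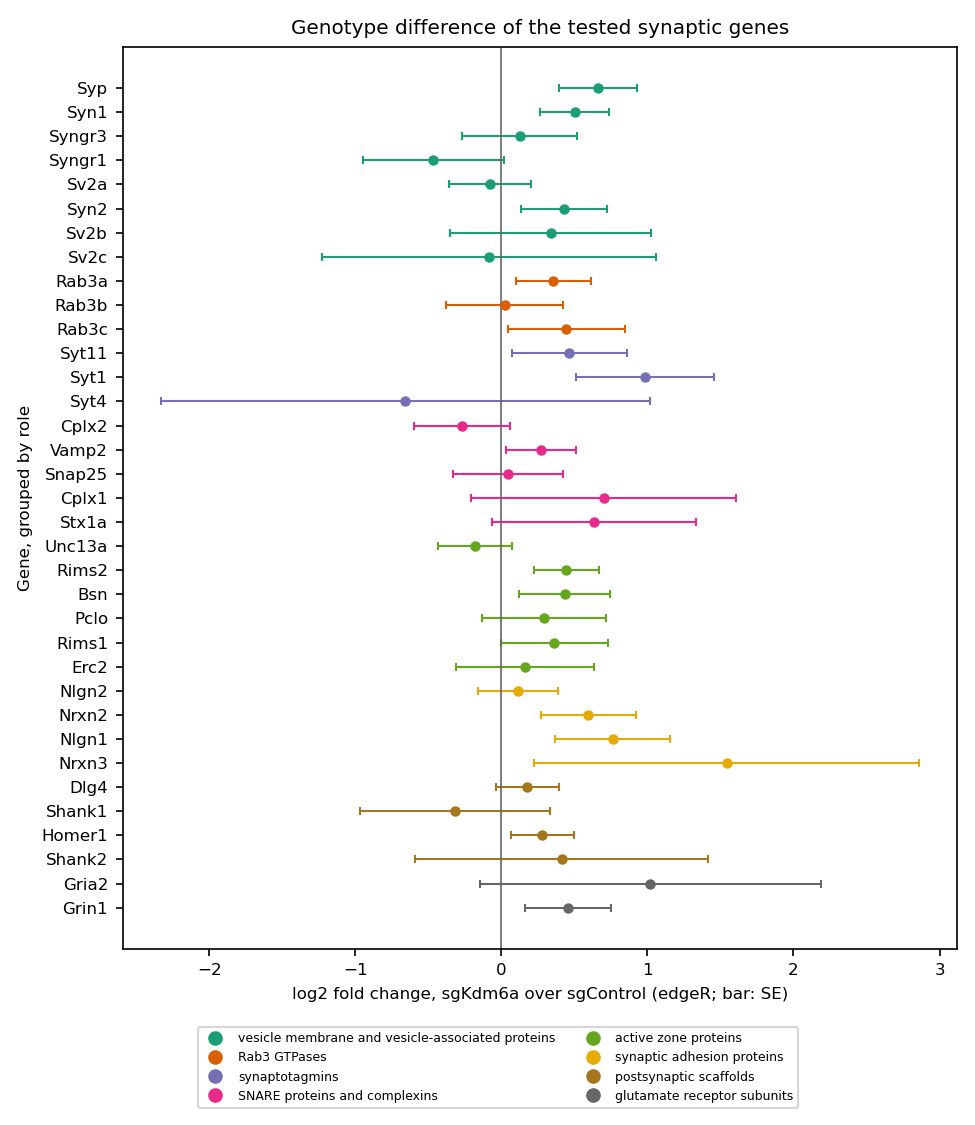
Log2 fold change of the 35 tested genes, sgKdm6a over sgControl, grouped by role and coloured by it; points are edgeR estimates and bars are 1 standard error. Most points lie right of 0, from -0.66 for Syt4 to 1.54 for Nrxn3, and the bars of Syt4, Nrxn3, Gria2 and Sv2c are the widest.

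Per unit of gene length, the genes differed widely in mean level. The deposited FPKM, which divide counts by gene length and library, gave mean levels over all 13 tumours from 170 for Cplx2 down to 0.302 for Slc17a6. The order at the top was Cplx2, Vamp2 (57.5), Syt11 (49.8), Syt1 (44.8), Syp (22.6), Rab3a (22.3), Nlgn2 (22.2), Snap25 (17.5), Syn1 (17.4) and Rab3b (15.8). Cplx2 lay above 99.1% of the tested genes and Vamp2 above 96.0%. Apart from Cplx2 and the step from Syt1 to Syp, neighbours among these 10 lay closer together than the spread between tumours. For example, Vamp2 was at 62.5 ± 17.2 FPKM in sgKdm6a tumours (SD, n = 7) against Syt11 at 57.0 ± 27.9 FPKM. The step from Syt1 to Syp exceeded the SD of Syp (10.1 FPKM in sgKdm6a, 4.97 in sgControl tumours). It also exceeded the SD of Syt1 in sgControl (18.4 FPKM) but not in sgKdm6a tumours (32.9 FPKM). In all, 16 genes averaged 10 FPKM or more and 4 averaged under 1 FPKM, namely Shank2, Erc2, Sv2c and Slc17a6. Presynaptic fusion genes headed the list, and the lowest FPKM were those of a scaffold, an active zone protein, a vesicle glycoprotein and a transmitter transporter.

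**Figure D2:**
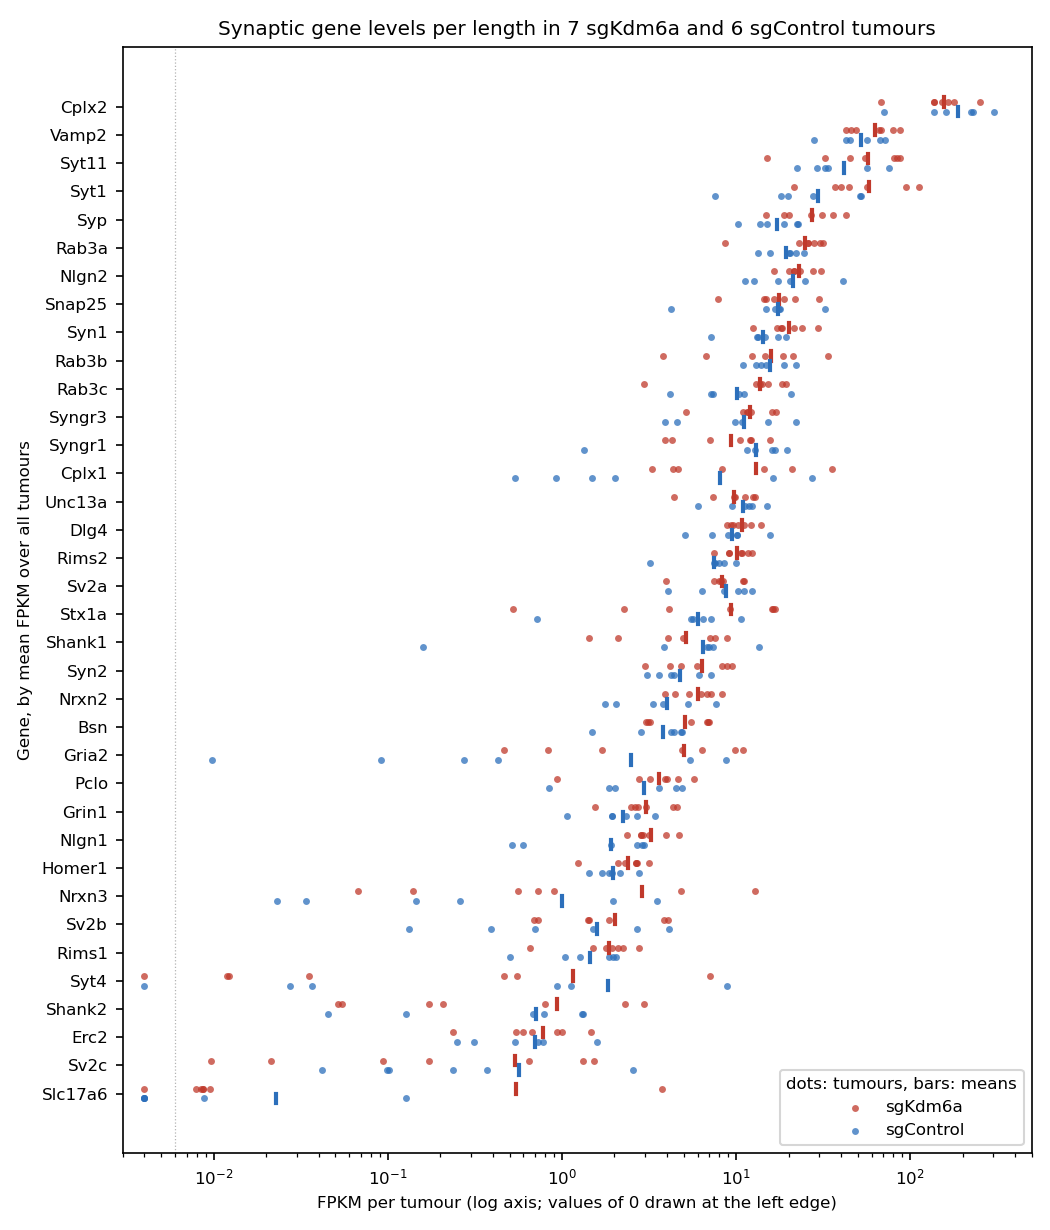
FPKM of the 36 genes on a log axis, ordered by mean over all tumours; dots are tumours, short bars are group means, sgKdm6a is drawn above sgControl, and values of 0 are drawn at the left edge. Cplx2 leads at a mean of 170 FPKM, and among the 35 tested genes Gria2, Nrxn3, Syt4, Sv2c and Shank1 spread over the widest ranges.

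Among vesicle proteins, 5 of 8 tested members had a log2 fold change above 0, with a median of 0.23. Syp (ENSMUSG00000031144, chromosome X, 7638471 to 7653256, plus strand, mm10) encodes the vesicle membrane protein synaptophysin. Its level was 84.0 to 235 CPM with a median of 149 in sgKdm6a tumours, against 56.8 to 128 CPM with a median of 94.3 in sgControl tumours. The 4 highest levels were in sgKdm6a replicates 1, 7, 6 and 2, while the other 3 sgKdm6a tumours lay within the sgControl range. In edgeR the Syp difference was 0.66 on the log2 scale, with an SE of 0.27, an unadjusted p of 0.0259 and an adjusted p of 0.432. Syp is X-linked, and 16% of the 538 X-linked genes tested were higher in sgKdm6a tumours at an unadjusted p under 0.05. With the level of Y-linked genes as a term the difference was 0.26, with an SE of 0.36 and an edgeR unadjusted p of 0.477. The unadjusted edgeR p of Syp was 0.0820 with counts summed by title number, 0.0930 with the tissue term and 0.0548 without sgControl replicate 6. Of the annotated exon bases of Syp 16.8% are shared with Gm14703 on the opposite strand, and the libraries did not keep the strand.

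Syn1, also X-linked, encodes synapsin I, which tethers vesicles to the cytoskeleton. Its CPM were 43.8 to 102 with a median of 65.5 in sgKdm6a tumours, against 24.9 to 68.1 with a median of 49.7 in sgControl tumours. Its log2 difference of 0.50, with an SE of 0.24, an edgeR unadjusted p of 0.0524 and an adjusted p of 0.494, was looked at after its values were seen, because of its chromosome. Its paralog Syn2 had 22.1 to 72.9 CPM in sgKdm6a and 22.8 to 54.1 CPM in sgControl tumours. The synaptogyrins Syngr1 and Syngr3 are small vesicle membrane proteins related to synaptophysin. Syngr1 had 20.1 to 81.6 CPM in sgKdm6a and 6.84 to 104 CPM in sgControl tumours, and Syngr3 11.3 to 37.9 CPM and 8.57 to 48.9 CPM.

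The SV2 glycoproteins sit in the vesicle membrane, and SV2A is the binding site of the antiepileptic levetiracetam. Sv2a was even, at 3.94 to 11.1 FPKM in sgKdm6a and 4.07 to 12.3 FPKM in sgControl tumours. Sv2b ran from 6.32 to 36.3 CPM in sgKdm6a and from 1.17 to 37.0 CPM in sgControl tumours. Sv2c (chromosome 13, 95954594 to 96132577) had 0.101 to 15.8 CPM with a median of 1.81 in sgKdm6a tumours, against 0.438 to 26.4 CPM with a median of 1.75 in sgControl tumours. The 4 highest Sv2c levels were in sgKdm6a replicates 7, 1 and 4 and sgControl replicate 4, so high tumours occurred in both genotypes. The Sv2c difference in edgeR was -0.082 on the log2 scale (SE 1.14), with an adjusted p of 0.994. Slc17a6 had 423 counts (21.9 CPM) in sgKdm6a replicate 3, 17 counts (0.735 CPM) in sgControl replicate 4 and 0 or 1 counts in each of the other 11 tumours, so all but these 2 were below the limit of 3 counts.

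The Rab3 GTPases mark vesicles for docking through their partners at the active zone. All 3 had log2 fold changes above 0, from 0.023 to 0.44, and their ranges overlapped. Rab3a had 20.4 to 73.5 CPM with a median of 62.6 in sgKdm6a tumours, against 31.5 to 59.7 CPM with a median of 48.3 in sgControl tumours. Its low value of 20.4 CPM was that of sgKdm6a replicate 2, in which Rab3b had its highest value, 127 CPM. Rab3b otherwise lay between 14.5 and 81.2 CPM in sgKdm6a and between 40.6 and 85.8 CPM in sgControl tumours. Rab3c was at 38.4 to 254 CPM in sgKdm6a and 53.7 to 265 CPM in sgControl tumours.

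Of the synaptotagmins, Syt1 encodes the calcium sensor of fast release. Its level was 187 to 1013 CPM with a median of 398 in sgKdm6a tumours, against 66.7 to 469 CPM with a median of 211 in sgControl tumours. Only sgKdm6a replicates 3, 5 and 7 lay above every sgControl tumour. The Syt1 difference in edgeR was 0.98 on the log2 scale (SE 0.47), with an adjusted p of 0.501. Syt11, a synaptotagmin that does not bind calcium, had 83.5 to 474 CPM with a median of 312 in sgKdm6a tumours and 123 to 415 CPM with a median of 186 in sgControl tumours. For Syt11 both the lowest and the highest tumour were sgKdm6a, and the edgeR estimate was 0.47 on the log2 scale (SE 0.39), with an adjusted p of 0.741. Syt4, a synaptotagmin of neuropeptide granules, had 0 to 29.3 CPM with a median of 0.149 in sgKdm6a tumours, against 0 to 36.7 CPM with a median of 2.05 in sgControl tumours. In each genotype its level was high in 1 tumour, replicate 4, and at 4.70 CPM or lower in all others. The Syt4 estimate in edgeR was -0.66 on the log2 scale (SE 1.67), with an adjusted p of 0.935, and 1.43 without sgControl replicate 4. DESeq2 gave Syt4 -3.18 (SE 1.40), with an unadjusted p of 0.0231 and an adjusted p of 0.364. That estimate is far from the group means of Syt4, which were 4.83 CPM in sgKdm6a and 7.60 CPM in sgControl tumours. Each mean rests largely on replicate 4, so the DESeq2 value is not a reliable size of a genotype difference. Why the 2 programs differed for Syt4 was not tested. Of the exon bases of Syt4 14.5% are shared with Gm26658 on the opposite strand.

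The SNARE group held the 2 most abundant members. Cplx2 (ENSMUSG00000025867, chromosome 13, 54371349 to 54383917) encodes complexin 2, which binds the assembled SNARE bundle. It had 67.8 to 253 FPKM with a median of 152 in sgKdm6a tumours, against 70.8 to 301 FPKM with a median of 192 in sgControl tumours. Both genotypes spanned nearly the same range, and the edgeR estimate was -0.27 on the log2 scale (SE 0.33), with an adjusted p of 0.833. Vamp2 encodes synaptobrevin 2, the SNARE protein of the vesicle itself. It had 42.9 to 86.8 FPKM with a median of 66.4 in sgKdm6a tumours, against 27.8 to 71.4 FPKM with a median of 50.6 in sgControl tumours. Vamp2 was among the steadiest members, its highest CPM being 3.16 times its lowest, and edgeR gave it a log2 difference of 0.27 (SE 0.24), with an adjusted p of 0.755. With the tissue term the Vamp2 difference was -0.013. Snap25, a SNARE protein of the plasma membrane, had 7.86 to 29.8 FPKM in sgKdm6a and 4.21 to 32.5 FPKM in sgControl tumours. Its partner Stx1a had 1.48 to 48.0 CPM in sgKdm6a and 2.03 to 30.2 CPM in sgControl tumours. Cplx1, the other complexin, had 7.86 to 84.2 CPM with a median of 19.7 in sgKdm6a tumours, against 1.25 to 63.5 CPM with a median of 4.18 in sgControl tumours.

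The highest CPM of an active zone gene was between 3.46 (Unc13a) and 6.86 times (Pclo) its lowest, and 5 of 6 had a log2 fold change above 0, with a median of 0.33. Unc13a, whose product primes docked vesicles, was at 58.8 to 173 CPM in sgKdm6a and 80.3 to 203 CPM in sgControl tumours. Rims2, a scaffold that binds Rab3, was at 82.7 to 137 CPM in sgKdm6a and 35.1 to 115 CPM in sgControl tumours, the lowest being sgControl replicate 6. Its paralog Rims1 was lower, at 1.67 FPKM on average against 8.92 FPKM for Rims2. Bassoon (Bsn) and piccolo (Pclo), giant scaffolds of the zone, averaged 4.49 and 3.30 FPKM. Erc2, a further scaffold, averaged 0.742 FPKM.

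All 4 adhesion genes had log2 fold changes above 0, with a median of 0.68. Nlgn2, the neuroligin of inhibitory synapses, was at 102 to 189 CPM in sgKdm6a and 69.1 to 253 CPM in sgControl tumours. Nlgn1, the neuroligin of excitatory synapses, was at 33.6 to 68.4 CPM in sgKdm6a and 7.32 to 41.9 CPM in sgControl tumours. Nrxn2, a presynaptic neurexin, was at 58.5 to 122 CPM in sgKdm6a and 25.9 to 116 CPM in sgControl tumours. Nrxn3 (chromosome 12, 88722876 to 90334935), another neurexin, ran from 0.911 to 175 CPM with a median of 10.05 in sgKdm6a tumours, against 0.308 to 47.3 CPM with a median of 2.72 in sgControl tumours. Its 4 highest tumours were sgKdm6a replicates 3 and 1 and sgControl replicates 2 and 1. For Nrxn3 edgeR gave a log2 difference of 1.54 (SE 1.32), with an adjusted p of 0.744. The Nrxn3 difference was 0.29 without sgKdm6a replicate 3 and 2.58 without sgControl replicate 2, and it was 0.34 in the lower and 5.47 in the higher number series of the titles.

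Scaffolds and receptors of the receiving side were also transcribed. Dlg4, which encodes PSD-95, was at 125 to 197 CPM in sgKdm6a and 71.6 to 219 CPM in sgControl tumours. Homer1, which links receptors to Shank scaffolds, was the steadiest member, at 16.2 to 39.6 CPM in sgKdm6a and 18.7 to 35.7 CPM in sgControl tumours. Shank1 (chromosome 7, 44310253 to 44360572), a large scaffold of the postsynaptic density, had 16.1 to 102 CPM with a median of 56.8 in sgKdm6a tumours, against 1.77 to 151 CPM with a median of 78.3 in sgControl tumours. The single low value was that of sgControl replicate 4, and edgeR gave Shank1 a log2 difference of -0.32 (SE 0.65), with an adjusted p of 0.917. Its paralog Shank2 had 0.609 to 34.8 CPM in sgKdm6a and 0.519 to 15.2 CPM in sgControl tumours.

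Gria2 (ENSMUSG00000033981, chromosome 3, 80681450 to 80802835, minus strand), whose product GluA2 limits calcium entry through AMPA receptors, had the widest range of the tested members. It had 7.73 to 183 CPM with a median of 81.1 in sgKdm6a tumours, against 0.164 to 144 CPM with a median of 5.79 in sgControl tumours. Gria2 was at 81.1 CPM or higher in 4 of 7 sgKdm6a tumours, whereas in sgControl replicates 1 and 2 it was at 89.4 and 144 CPM and in the other 4 at 7.09 CPM or lower. For Gria2 edgeR gave a log2 difference of 1.02 (SE 1.17), with an adjusted p of 0.821. The Gria2 difference was 0.70 without sgKdm6a replicate 3 and 2.02 without sgControl replicate 2, and it was 0.25 in the lower and 4.17 in the higher number series. Grin1, the obligatory subunit of NMDA receptors, was at 15.7 to 48.6 CPM in sgKdm6a and 10.99 to 36.5 CPM in sgControl tumours, and 13.5% of its exon bases are shared with Grin1os on the opposite strand.

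**Figure D3:**
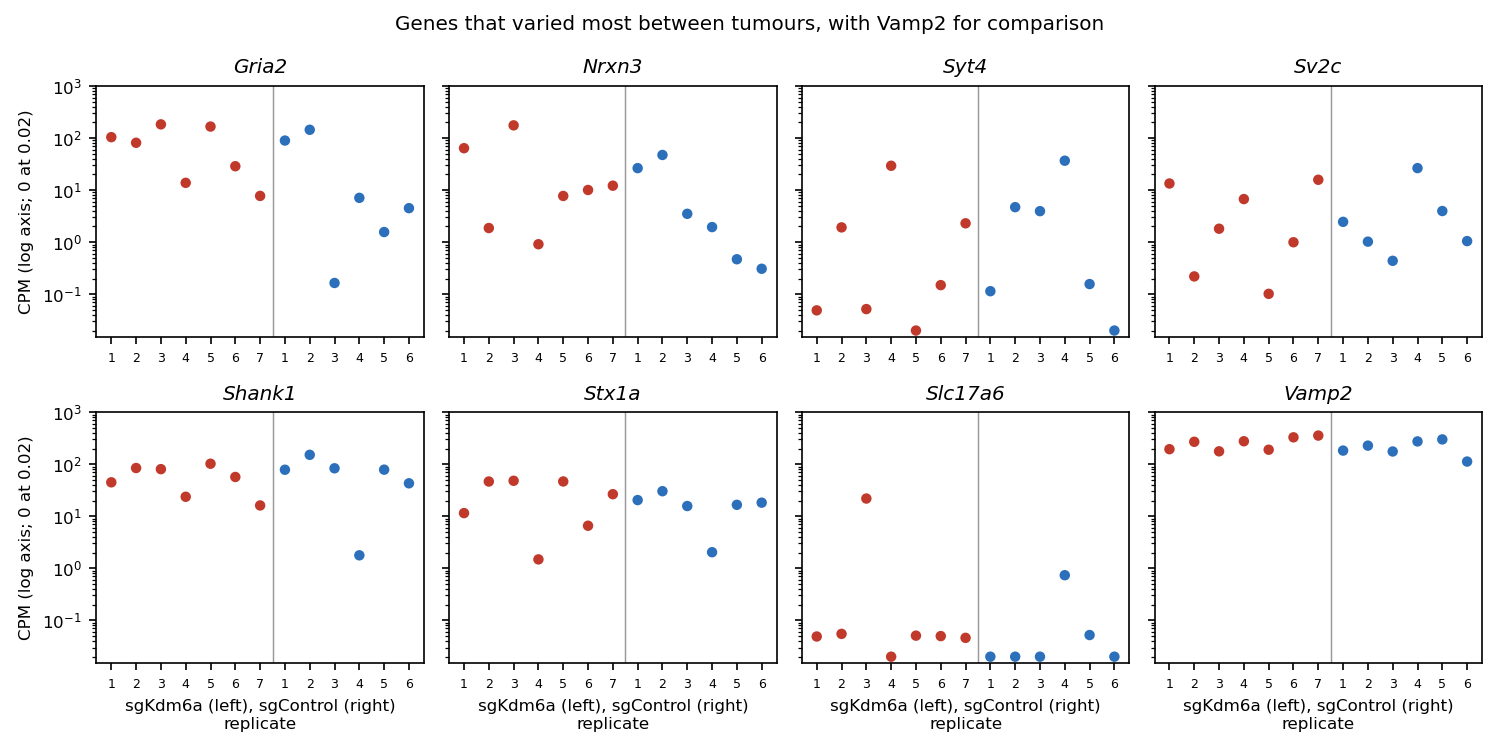
CPM per tumour on a log axis of the 5 tested genes with the widest ranges, and of Stx1a, the untested Slc17a6 and Vamp2. The sgKdm6a replicates are left of the line and the sgControl replicates right of it, and 0 is drawn at 0.02. Gria2 runs from 0.164 to 183 CPM, while Vamp2 stays between 112 and 355 CPM.

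The members varied more from tumour to tumour than the usual gene did. The range of log2 CPM over 13 tumours had a median of 2.50 over the members and 2 over all genes tested. A range under 2 was found for 9 of 35 members (25.7%) and for 50.01% of all genes, and a range over 4 for 9 members (25.7%) and for 21.9% of all genes. The highest CPM was 1116 times the lowest for Gria2 and 570 times for Nrxn3, against 3.07 times for Dlg4 and 2.44 times for Homer1. The lowest values of Gria2 and Nrxn3 rest on 3 and 5 counts, so the sizes of these 2 ratios are imprecise. The median SD of log2 CPM over the members was 0.65 within sgKdm6a and 0.78 within sgControl tumours, against 0.52 and 0.57 over all genes. Without sgControl replicate 6, the members' median SD in sgKdm6a minus that in sgControl tumours was 0.0040, so the larger sgControl value depended on that tumour. No test was made of these spreads.

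Single tumours stood apart in different genes. sgControl replicate 6 was the lowest tumour for 14 of the 35 members and below the mean for 32, with a median deviation of -1.001 on the log2 scale, against -0.16 to 0.33 in the other 12 tumours. The CPM of the members summed to 3444 to 4659 in sgKdm6a tumours, against 1573 in sgControl replicate 6 and 3014 to 4511 in the other sgControl tumours. That tumour also had the highest tissue marker sum, whose part in its low values was not tested. sgControl replicate 4 was the lowest tumour for 6 members and the highest for 6. A pattern noticed after the values were seen is that sgKdm6a replicate 4 and sgControl replicate 4 combined high levels of Syt4 (29.3 and 36.7 CPM) and Sv2b (34.6 and 37.0 CPM) with low levels of Stx1a (1.48 and 2.03 CPM) and Syngr1 (20.1 and 6.84 CPM). In sgKdm6a replicate 7, Sv2b and Sv2c were also high, at 36.3 and 15.8 CPM, while Syt4 was at 2.30 CPM.

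**Figure D4:**
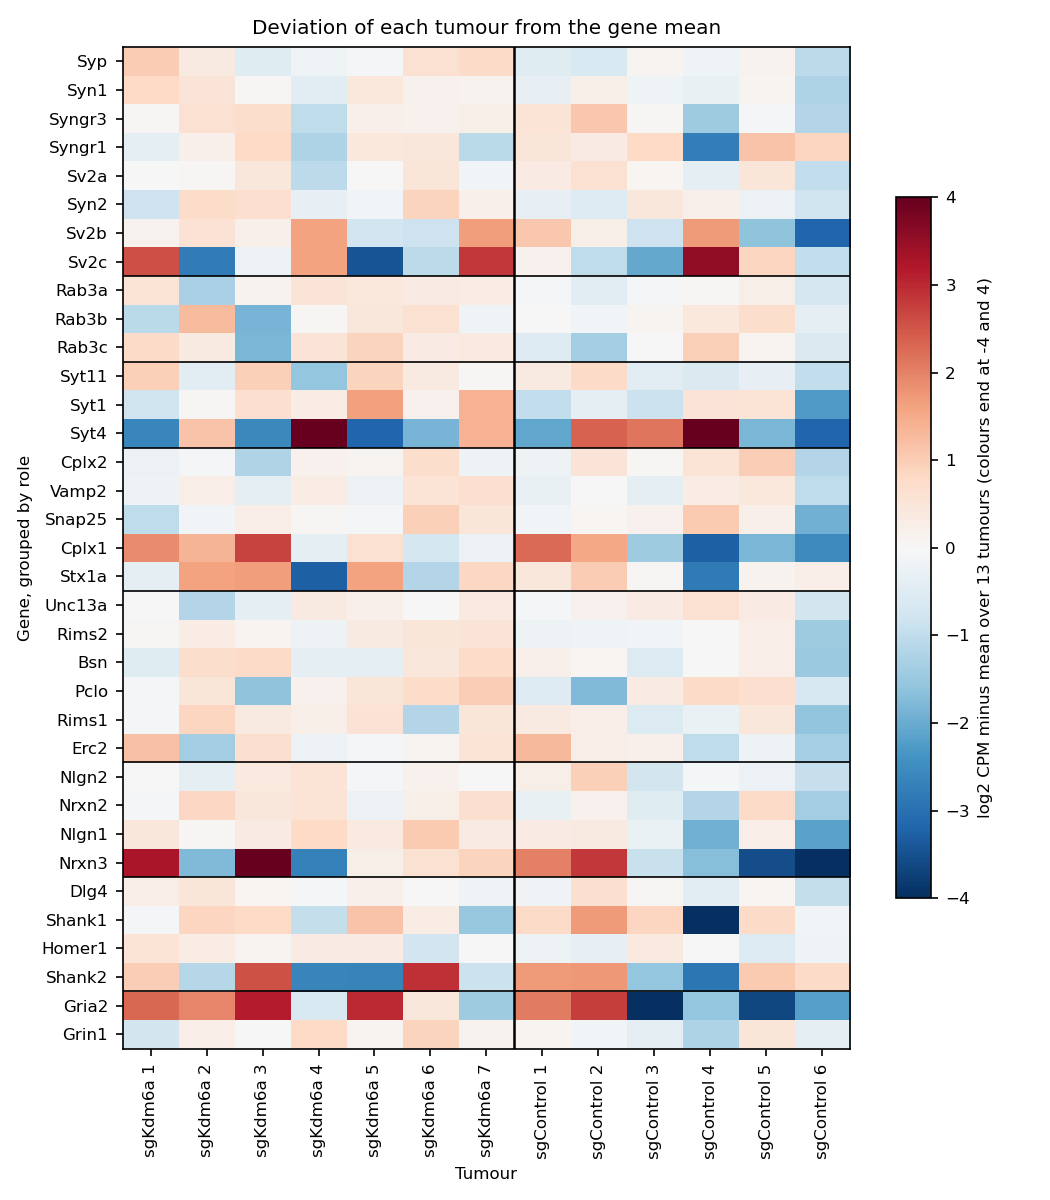
Heat map of log2 CPM minus the mean over 13 tumours for the 35 tested genes, grouped by role, with sgKdm6a tumours left of the line and sgControl tumours right of it; colours end at -4 and 4. The column of sgControl replicate 6 is low for 32 of the genes, and Gria2, Nrxn3, Syt4 and Sv2c change from tumour to tumour in both genotypes.

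Tumours that share a title number differed widely in some members. Between sgKdm6a replicates 1 and 2 the median absolute difference of log2 CPM was 0.81 over the members and 0.56 over all genes, between replicates 4 and 5 it was 0.57 and 0.49, and between replicates 6 and 7 it was 0.47 and 0.34. The 18 sgKdm6a pairs with different numbers had member medians of 0.44 to 1.14. Within a shared number, Sv2c differed by 5.38 between replicates 1 and 2 and by 3.85 between replicates 6 and 7, and Syt4 by 8.15 between replicates 4 and 5.

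Within families, the share of the summed FPKM showed which paralog was the main one. In 6 of 11 families the same member led in all 13 tumours, namely Sv2a, Syn1, Cplx2, Rims2, Nlgn2 and Shank1. Cplx2 held 90.3 ± 11.7% of the complexin FPKM in sgKdm6a (SD, n = 7) and 95.6 ± 6.41% in sgControl tumours (SD, n = 6), and Rims2 held 84.5 ± 5.09% and 84.1 ± 3.79% of the Rims FPKM. Rab3a led in 12 tumours, and in sgKdm6a replicate 2 Rab3b led with 60.3%. Syt1 led in 6 tumours and Syt11 in 7, Syngr1 in 5 and Syngr3 in 8, and Bsn in 9 and Pclo in 4. Nrxn2 led in 11 tumours and Nrxn3 in sgKdm6a replicates 1 and 3, with up to 67.3%. Which synaptotagmin, synaptogyrin or giant scaffold led thus varied within each genotype, while the main complexin and Rims gene did not.

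**Figure D5:**
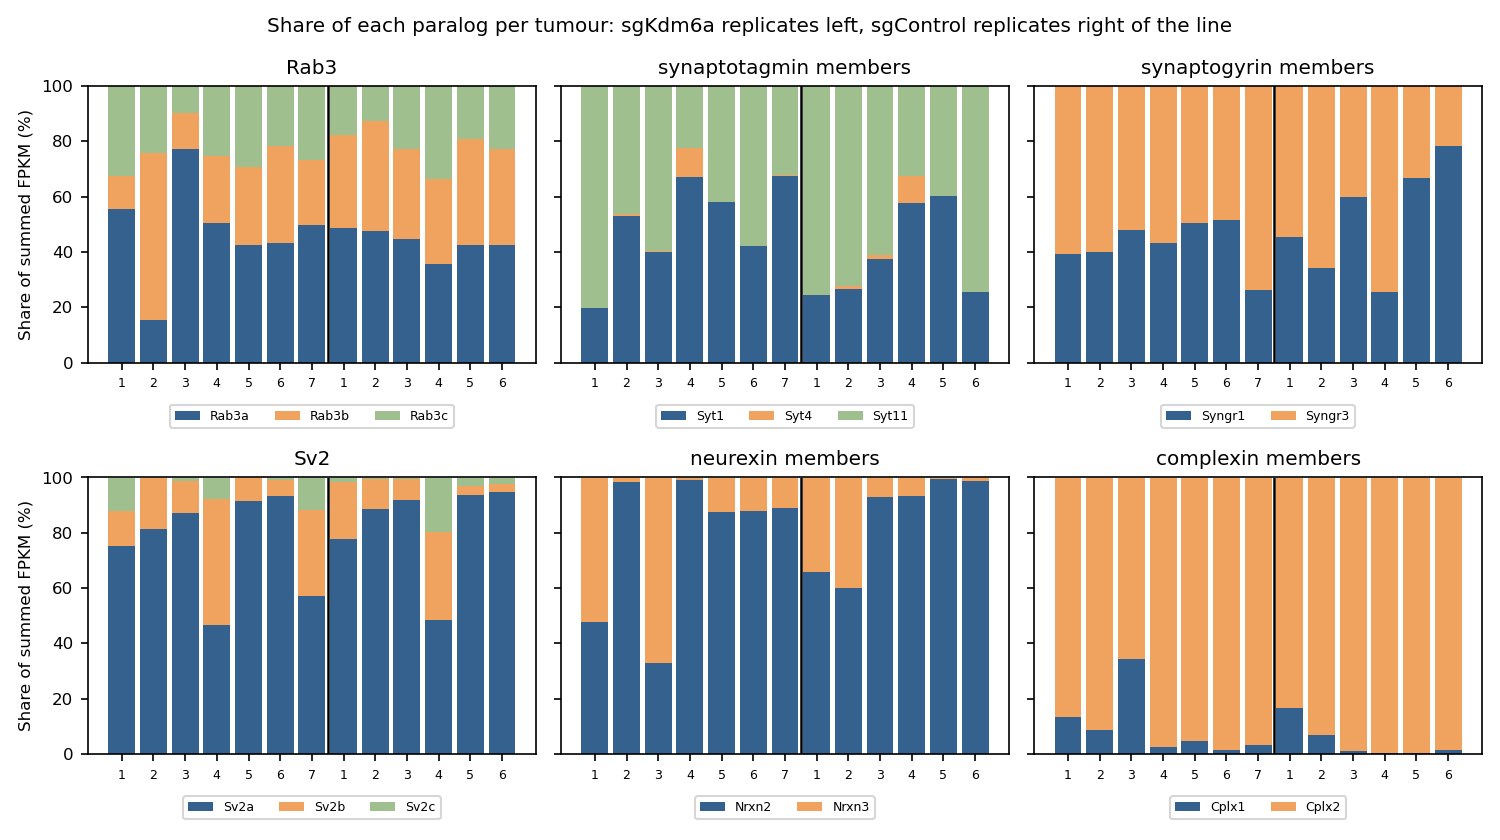
Share of each paralog in the summed FPKM of its family, in percent, for 6 families; each bar is a tumour, with sgKdm6a replicates left of the line and sgControl replicates right of it. Cplx2 and Sv2a lead in every tumour, whereas Syt1 leads in 6 tumours and Syt11 in 7.

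Other genes of the synapse were counted from lists that did not hold the members. Of 71 other presynaptic genes 65 were tested, and 0 passed the edgeR adjusted threshold. At an unadjusted p under 0.05, 2 of the 65 were higher in sgKdm6a tumours and 1 was lower, against 3.18% and 6.97% of all genes, with a median log2 fold change of 0.099. Among the higher ones was the vesicle gene Synpr, at a log2 difference of 1.45 (SE 0.57) and an edgeR adjusted p of 0.427. Synpr had 13.5 to 59.5 CPM in sgKdm6a and 2.13 to 29.0 CPM in sgControl tumours. The lower one was Lin7b, a scaffold gene, at -0.65 (SE 0.30, edgeR adjusted p = 0.488). Of 55 other postsynaptic genes 41 were tested, with a median log2 fold change of 0.19, and 2 were higher and 0 lower at that unadjusted p. These were Gabra3, a subunit of GABA receptors, with 2.71 (SE 1.08, edgeR adjusted p = 0.432), and Camk2a, a kinase of the postsynaptic density, with 1.58 (SE 0.72, edgeR adjusted p = 0.483). Both lists together had 111 genes tested without sgControl replicate 6, of which 3 were higher and 1 was lower at that unadjusted p. Of all genes in that fit 2.75% were higher and 2.79% lower. With the tissue term 0 of 106 were higher and 3 were lower, against 3.56% and 3.52% of all genes.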

How the data were processed

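RNA of 13 tumours was sequenced as read pairs from libraries that do not keep the strand, per the labels. The authors deposited raw counts per gene, and FPKM that equal the count divided by gene length and by a constant per tumour, 0.883 to 1.12 times its total count. STAR, DESeq2 and the mm10 build are named in the submitters' processing notes, while the counting program is not given in the sources used here. The genotype label set the groups, and accession order set the replicate numbers.

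Counts were fitted in R 4.3.3 with edgeR 4.0.16 (filterByExpr, TMM, robust quasi-likelihood F test, no covariate) on all genes, with Benjamini-Hochberg adjustment and a threshold of 0.05. The standard error was the log2 fold change divided by the square root of F. Scripts were tested on simulated data. Alternatives used DESeq2 1.42.0, limma 3.58.1 on log2(FPKM + 1) and log2(FPKM + 0.1), other scalings and filters, terms for the number series of the titles, tissue marker level and Y-linked level, and leaving out each tumour.

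The members and lists were chosen with earlier results of these data known. Fold changes are given for members at an unadjusted p under 0.05, the 5 of highest mean FPKM and the 5 of widest range, and also for Syn1, which was added after its values were seen. The others are described by ranges or levels (with Syn1, 25 members, -0.46 to 0.76, smallest edgeR unadjusted p = 0.0524). In each related list up to 2 genes per direction with the smallest p were named. Some genes that these rules take are not reported here. Of the members, 35 have the same start, end and strand in GENCODE M21. The limit of 3 counts covers counting error only, while standard errors carry the variation between tumours.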

Additional observations from a re-analysis of the deposited data

Results flagged for a closer look

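Of 72 groups of tumours examined, 1 per member and genotype, 12 held a tumour that stood apart from the rest of its genotype by Dixon's criterion, and chance gives about 1 in 20. Among the tested members this held for 10 of 70 groups (14.3%), against 10.8% of the groups over all genes tested. The members share their tumours, and these shares were not compared by a test. The 2 groups of Slc17a6 rest on other values of 0 or 1 count. In sgKdm6a replicate 2, Rab3a was at 20.4 CPM, against 55.2 to 73.5 CPM in the other sgKdm6a tumours. In sgKdm6a replicate 3, Rab3c was at 38.4 CPM (170 to 254 CPM in the others of its genotype), Pclo at 22.6 CPM (65.5 to 138 CPM) and Slc17a6 at 21.9 CPM (0 to 0.0548 CPM). In sgKdm6a replicate 4, Sv2a was at 19.5 CPM (36.9 to 56.2 CPM) and Syngr3 at 11.3 CPM (23.9 to 37.9 CPM). Homer1 was at 16.2 CPM in sgKdm6a replicate 6 (27.1 to 39.6 CPM). In sgControl replicate 4, Stx1a was at 2.03 CPM (15.7 to 30.2 CPM), Shank1 at 1.77 CPM (42.9 to 151 CPM), Syngr1 at 6.84 CPM (59.0 to 104 CPM) and Slc17a6 at 0.735 CPM (0 to 0.0521 CPM). Rims2 was at 35.1 CPM in sgControl replicate 6 (82.8 to 115 CPM). The cause of these values was not tested.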

How the results depend on the processing

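In all fits 0 members passed the adjusted threshold. At an unadjusted p under 0.05, 1 of 35 members was higher in the reported fit, against 3.18% of all genes. The number was 2 with RLE factors, with no filter and with a filter of 1 CPM in 6 tumours. It was 3 with DESeq2, limma-voom, a term for the number series and the lower number series alone. In the higher series alone it was 5, against 2.83% of all genes. With log2(FPKM + 0.1) it was 5, against 3.29%, and with log2(FPKM + 1) it was 6, against 3.16%. It was 0 with counts summed by title number or a term for tissue or Y-linked level, and 0 to 5 without 1 tumour. Across all fits, 2.18% (summed counts) to 4.74% (DESeq2) of all genes were higher. The number of members lower was 1 with DESeq2 (Syt4), the tissue term (Snap25) and the Y-linked term (Rab3c). Of all genes 5.91%, 3.52% and 2.50% were lower in these 3 fits. The number was 0 in every fit without 1 tumour. The members' median log2 fold change was -2.93e-05 with the tissue term and 0.27 to 0.42 without 1 tumour. Of the other synapse genes, 4 of 106 were higher as reported. With the series term 7 of 106 were higher, against 3.74% of all genes, and with the tissue term 0 of 106, against 3.56%. In the lower series 2 of 114 were higher, against 2.92%, and in the higher series 10 of 112, against 2.83%. The number was 2 to 7 without 1 tumour. The number of other synapse genes lower, 1 as reported, was 2 with no filter and with the Y-linked term. It was 0 with summed counts, limma-voom and the series term, and 0 to 1 without 1 tumour. In the lower series it was 4, against 2.22% of all genes, and with the tissue term it was 3, against 3.52%. The sign of Shank1 turned with limma-voom (0.29), the series term (0.0054), the higher series (0.44), the Y-linked term (2.07) and log2(FPKM + 0.1) (0.10), and it was -0.57 to 0.039 without 1 tumour. Sv2c turned with the series term (0.22), the lower series (2.37), log2(FPKM + 1) (0.036) and log2(FPKM + 0.1) (0.064), and was -0.61 to 1.64 without 1 tumour. Vamp2 turned with the tissue term (-0.013) and the Y-linked term (-0.071), and Syt4 was -0.92 to 1.43 without 1 tumour, in the 10 of 13 such fits that kept it. Syp was 0.53 to 0.78 without 1 tumour. The number of families with 1 leading member was 6 to 7 without 1 tumour. The median SD of the members in sgKdm6a minus that in sgControl, -0.13 as reported, was -0.21 to 0.0040 without 1 tumour. The value of 0.0040 was that without sgControl replicate 6. The causes were not tested. No paired analysis was possible because the replicate numbers follow accession order and the labels pair no sgKdm6a tumour with an sgControl tumour. Depth limits Slc17a6, Syt4 and Sv2c, each of which had under 3 counts in at least 1 tumour.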
